A study of Mus musculus with 17 samples.

Results

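Cocaine was compared with no cocaine in proestrus, the high-estrogen, low-progesterone stage of the estrous cycle, in 6 of the 17 ATAC-seq libraries of the study. ATAC-seq marks open chromatin by inserting adapters into accessible DNA with a transposase. The 6 libraries were chosen by their titles, 3 of proestrus cocaine (numbered 1, 2 and 4) and 3 of proestrus control (1, 2 and 3). All came from C57BL/6 females (C57BL/6J in the study's methods) aged 52 to 54 days, whose NeuN+ (neuronal) nuclei were sorted out of bilateral nucleus accumbens tissue, and each library pooled 3 animals. The cocaine group received 10 mg/kg cocaine intraperitoneally and was killed 1 hour later, and the control group was the baseline without cocaine, for which no injection is described, so that the drug and the injection cannot be told apart. Stage was read from vaginal smears. Separate pools are the replicates, so the errors below are between pools and not between animals.

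The nucleus accumbens is a ventral striatal region that receives dopamine input, and most of its neurons are medium spiny neurons, which use GABA as their transmitter. Cocaine blocks the reuptake of dopamine, and receptor signalling in these neurons induces immediate early genes such as Fos and Jun within the hour. Fos and Jun proteins pair to form AP-1, which binds the sequence TGACTCA and is known to open chromatin at enhancers. On the other strand the same site reads TGAGTCA. Estrogen acts in the same neurons through its receptors and their coactivators, among them Ncoa1.

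The peaks of the 6 libraries on chromosomes 1 to 19, as called by the authors in each library, merged into 204589 regions wherever they overlapped. A region was gained if all 3 cocaine libraries and no control library had a peak in it, and lost in the converse case. By this definition 3670 regions, 1.79% of all, were gained and 3083, 1.51%, were lost. These calls chose the regions, so the counts are a description without a test. At a −log10 q of at least 5, 659 of the gained (18%) and 383 of the lost regions (12.4%) were still so. Leaving out 1 library gave up to 9776 gained regions (without cocaine library 2) and up to 7590 lost regions (without control library 1). A missing peak means that the region did not reach the caller's threshold at that depth, not that it was closed.

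Gained regions were poorer in GC, farther from start sites and richer in AP-1 motifs than all merged regions, and lost regions were richer in GC, nearer to start sites and poorer in AP-1 motifs. To show the sequences that carry the motif, 201 bases around the summit are given for the 4 gained regions with an AP-1 motif whose rank was highest, from the plus strand of GRCm38, the same build as the mm10 of the files. Capitals mark AP-1 motifs.
Gained near Ube2e3, chr2:78449607-78449807: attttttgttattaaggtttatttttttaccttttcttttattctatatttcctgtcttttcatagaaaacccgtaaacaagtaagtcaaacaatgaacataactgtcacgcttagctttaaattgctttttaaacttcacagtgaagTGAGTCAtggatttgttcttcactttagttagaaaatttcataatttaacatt
Gained near Cdh5, chr8:103960261-103960461: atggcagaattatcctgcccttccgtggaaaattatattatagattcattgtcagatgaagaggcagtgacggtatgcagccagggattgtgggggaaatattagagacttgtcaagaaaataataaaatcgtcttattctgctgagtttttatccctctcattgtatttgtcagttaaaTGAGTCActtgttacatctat
Gained near Kif2b, chr11:91734631-91734831: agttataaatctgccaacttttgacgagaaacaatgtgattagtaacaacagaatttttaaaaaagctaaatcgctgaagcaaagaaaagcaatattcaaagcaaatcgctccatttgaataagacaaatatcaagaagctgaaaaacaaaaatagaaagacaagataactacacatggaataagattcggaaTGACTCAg
Gained near Akr1e1, chr13:4771469-4771669: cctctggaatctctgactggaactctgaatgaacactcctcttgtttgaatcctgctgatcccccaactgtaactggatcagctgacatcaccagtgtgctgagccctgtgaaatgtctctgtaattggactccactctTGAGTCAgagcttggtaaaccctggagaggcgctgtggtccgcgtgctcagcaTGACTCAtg
All 4 gained sequences lay outside protein-coding genes. The gained region near Akr1e1 held 2 motifs and each of the others held 1.

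**Figure D1:**
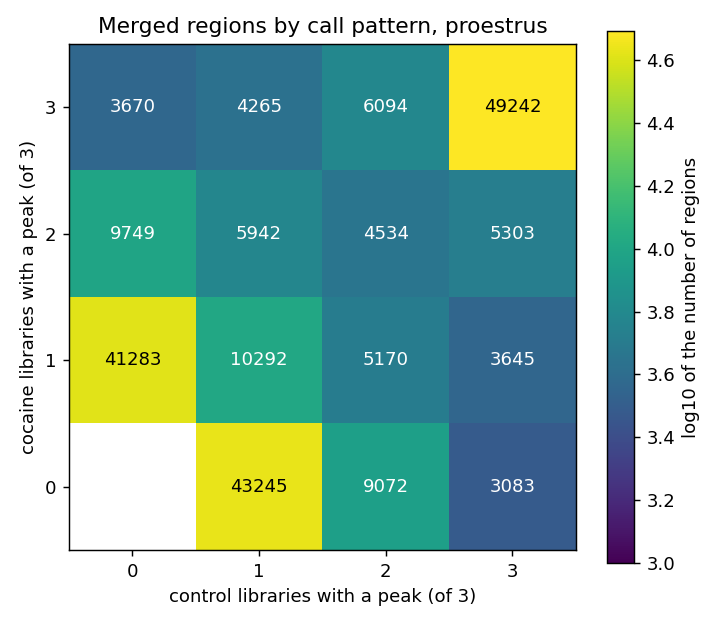
Number of merged regions for each number of cocaine libraries (vertical axis, 0 to 3) and control libraries (horizontal axis, 0 to 3) with a peak, coloured by log10 of the number. The corner with all 6 libraries holds 49242 regions, and the corners with complete separation hold 3670 gained and 3083 lost regions.

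The call patterns show how narrow the boundary of these groups was. Beside the 3670 gained regions stood 4265 regions called in 3 cocaine libraries and 1 control library, and 9749 called in 2 cocaine libraries and no control library. Beside the 3083 lost regions stood 3645 called in 3 control libraries and 1 cocaine library, and 9072 called in 2 control libraries and no cocaine library. Most members were weak peaks. Within a library, regions were ranked by column 7, the fold enrichment of the summit over the background, and given as percentiles. The median of the lowest of the 3 ranks was 20.2 for gained and 16.8 for lost regions. This lowest rank exceeded 50 in 186 gained and 205 lost regions and exceeded 90 in none of them.

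In the annotation, 42.6% of gained regions were intergenic, against 24.3% of lost and 26.9% of all merged regions. Introns held 52.6% of gained and 62.6% of lost regions. Exons held 2.97% of gained regions, 10.1% of lost regions and 4.82% of all. Promoters, here summits within 1 kb of a protein-coding start site, were scarce in both, with 68 gained (1.85%) and 92 lost regions (2.98%), against 7.06% of all regions. Of 14446 promoter regions 10495 were called in all 6 libraries and could not be gained or lost by definition, so this scarcity says nothing about cocaine. With 3 kb in place of 1 kb, the promoter share of gained regions was 12.5 percentage points below that of lost regions instead of 1.13 points. The median distance to a start site was 67.5 kb for gained regions, 11.6 kb for lost and 29.2 kb for all. Median GC content in the 250 bp on either side of the summit was 39.7% in gained regions, 48.5% in lost regions and 44.1% overall. More than 50% of the 201 bp around the summit was masked as repeat in 4.63% of gained, 14.4% of lost and 8.18% of all regions.

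The AP-1 motif lay within 100 bp of the summit in 592 gained regions (16.1%) and 140 lost regions (4.54%), beside 8.07% of all merged regions. MEF2 sites (CTAAAAATA), bound by a family of activity-regulated neuronal factors, were found in 1.93% of gained, 0.519% of lost and 1.09% of all regions. The octamer (ATGCAAAT), read by POU factors, was found in 2.72% of gained, 1.17% of lost and 1.79% of all. The cAMP response element TGACGTCA lay in 11 gained regions (0.300%) and no lost region, both below the 0.417% of all. The order was reversed for the proneural E-box CAGATGG, with 3.95% of gained and 5.55% of lost regions, and for the SP/KLF site GGGGCGGGG, with 0.381% and 1.01%, beside 4.46% and 1.70% of all. The estrogen response element, a palindrome with a spacer, was found in 0 gained and 3 lost regions, beside 36 of all 204589. Both strands were searched for each motif, and a match is a match of letters only.

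Since GC content separated gained from lost regions, the AP-1 share was also read within 5 bins of GC content with about equal numbers of merged regions, a setting chosen after the data were seen. In the lowest bin it was 13.3% of 1259 gained and 4.26% of 141 lost regions, and in the highest it was 16.4% of 122 gained and 3.94% of 1142 lost regions. Gained regions held more motifs than lost regions in 5 of 5 bins, by 13 percentage points on average with the lost regions as weights, against 11.6 points without regard to GC. The share of regions gained ran from 3.17% in the lowest bin to 0.292% in the highest, and the share lost from 0.355% to 2.73%.

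**Figure D2:**
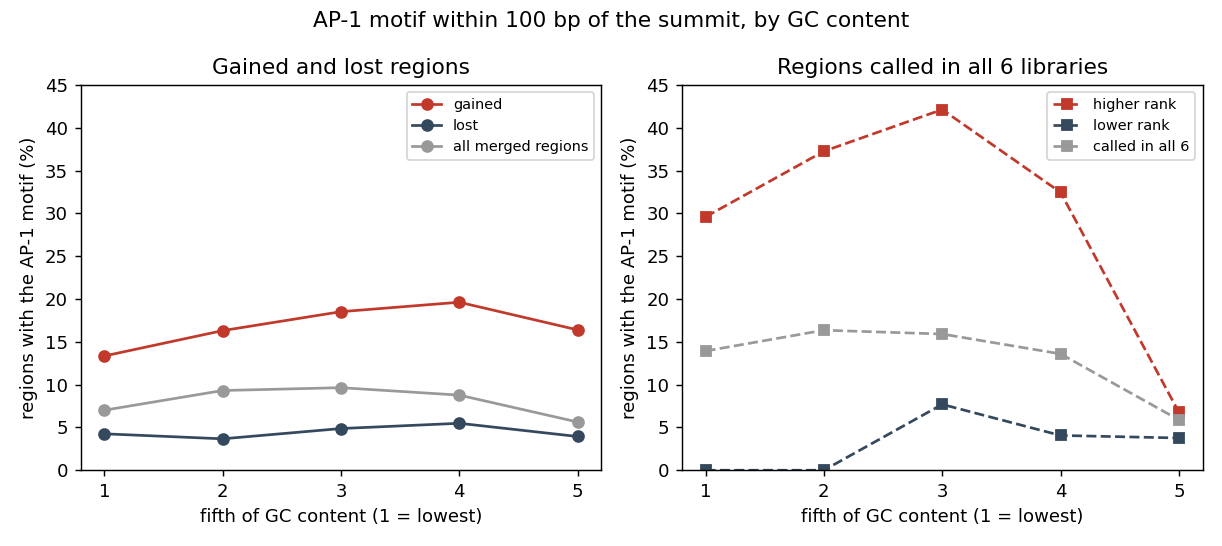
Share of regions with an AP-1 motif within 100 bp of the summit (vertical axis, percent) by bin of GC content (horizontal axis, 1 the lowest). The left panel shows gained, lost and all merged regions, and the right panel regions higher, lower or tested in the comparison of fold enrichment. Gained regions run from 13.3% to 19.6% and lost regions from 3.67% to 5.48%.

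Among gained promoter regions, the 8 of highest rank were those of Nrn1 (an activity-regulated factor of neurite growth), Creb5 (a CREB family factor), Rhoj (a small GTPase), Ly96 (a partner of the innate receptor Tlr4), Plac8, Gcnt2, Utrn (a relative of dystrophin) and Smim3. At the Nrn1 promoter, chr13:36734260-36735333, fold enrichment was 3.40, 3.42 and 3.35 in cocaine libraries 1, 2 and 4. At the Creb5 promoter, chr6:53573049-53573473, which held an AP-1 motif, it was 4.61, 4.81 and 3.25. None of these promoters was called in a proestrus control, but those of Nrn1, Creb5, Rhoj and Plac8 were called in all 3 diestrus controls. The region at Nrn1 was no longer gained when peaks of all 17 libraries were merged, where both groups had equal numbers of calls.

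Of the gained regions elsewhere, the 6 of highest rank lay nearest Meox2, Igbp1b, Ube2e3, Jun, Cdh5 and Kcnt2. The region near Jun, which encodes an AP-1 subunit, was intergenic at chr4:95023307-95023788, 28613 bp from the start site. Its fold enrichment was 4.51, 4.28 and 4.82 in the cocaine libraries. Outside proestrus it was called in 3 of 3 diestrus cocaine and 1 of 3 diestrus control libraries, and in 1 of 2 male cocaine and 0 of 3 male control libraries. The region near Kcnt2, a sodium-activated potassium channel gene, lay in its intron at chr1:140335296-140336212 with 4.51, 4.17 and 4.61. In diestrus it was called in 3 cocaine and 3 control libraries, as was the region near Cdh5. That near Ube2e3 was called in 3 cocaine and 2 control libraries of diestrus. Those near Meox2 and Igbp1b were each called in 3 and 1.

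The 8 lost promoter regions of highest rank were those of Crxos, Rspo1 (a Wnt agonist), Zfp607a, Drd4 (the dopamine D4 receptor), Slc39a3 (a zinc transporter), Abcc6, Kcnab2 (a potassium channel subunit) and Llgl2 (a polarity gene). At the Drd4 promoter, chr7:141291973-141292350, fold enrichment was 4.22, 4.87 and 3.32 in controls 1, 2 and 3. It was also called in 3 of 3 diestrus controls and 1 of 3 diestrus cocaine libraries. At the Crxos promoter it was 6.76, 5.80 and 4.74, and no diestrus library had a peak there. Repeat covered 86.6% of the 201 bp around the summit at Crxos and 64.7% at Zfp607a, against 0% to 36.3% at the other lost promoters named. The 6 lost regions of highest rank elsewhere, nearest Fezf2, Sema3d, Serpinb3d, Epb41l4a, Irx2 and Pard6b, were masked as repeat over 17.4% to 100% of the 201 bp around the summit. The region near Fezf2, in an intron of the vesicle release gene Cadps, had 8.97, 6.85 and 6.07 in the controls, and was called in 3 of 3 diestrus controls and 0 of 3 diestrus cocaine libraries.

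Of 20780 autosomal protein-coding genes, 1351 (6.5%) had a gained region in the gene or at its promoter and 1619 (7.79%) a lost one. A gained promoter region was found for 67 genes (0.322%) and a lost one for 92 (0.443%). A gained and a lost region, in the gene or at its promoter, were both found for 111 genes, and no gene had both at its promoter. Genes with gained regions alone had a median length of 132.75 kb and those with lost regions alone 31.986 kb, against 17.636 kb for all. The most gained regions lay in Ctnna2 (15, of 227 regions in the gene), Pde4d (11 of 132), Sh3gl2 (10 of 66), Negr1 (9 of 291) and Immp2l (8 of 67), none of which had a lost region. Ctnna2 encodes a catenin of neuronal adhesion, Pde4d a phosphodiesterase that breaks down cAMP and Sh3gl2 an endophilin of synaptic vesicle endocytosis. The most lost regions lay in Gm20388 (35 of 938), Rbfox3 (24 of 240), Rbfox1 (16 of 535), Celf2 (12 of 334) and Ank3 (11 of 299). Gm20388 is a predicted gene model 4434.88 kb long that overlaps many other genes. Rbfox1, Rbfox3 and Celf2 encode RNA-binding splicing factors, and Rbfox3 is the NeuN antigen by which the nuclei were sorted. Ank3 was the only 1 of these 5 genes with gained regions, 2 in number.

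The gene lists differed in their counts of gained and lost regions. They are described by counts beside the shares of all merged regions, 1.79% gained and 1.51% lost, and no test was made over them. In the list of axon guidance genes 32 of 1504 regions (2.13%) were gained and 6 (0.399%) lost. The potassium channel list had 33 gained (1.98%) and 19 lost (1.14%) of 1664, the GABA list 14 gained (1.56%) and 1 lost of 896, and the opioid and neuropeptide list 5 gained and 0 lost of 95. The gained share of the GABA list was below that of all merged regions, and that of the potassium channel list was near it. The gained regions of the GABA list lay in 9 genes, among them the receptor genes Gabbr2, Gabra4 and Gabrb2. Its lost region lay in Gabbr1. In diestrus the gained Gabbr2 regions were called in 0 or 1 cocaine libraries and in 3 controls. That of Gabra4 was called in 3 and 2, and those of Gabrb2 in 1 or 2 and in 1. Among opioid and neuropeptide genes the gained regions lay in Oprm1, Oprk1 (the mu and kappa opioid receptors) and Cck, and at Cck in the promoter. The Cck region was weak, with a lowest rank of 4.89, and was called in 1 cocaine and 3 control libraries of diestrus. The Oprk1 region was called there in 3 and 1, and those of Oprm1 in 3 and 1, 3 and 2, and 0 and 0.

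In the list of dopamine and medium spiny neuron signalling, 1 region (0.163%) was gained and 16 (2.60%) were lost of 615. Of the 16 lost regions 9 lay in Prkcb alone and the others in 6 of the 22 genes, with Drd4, Prkcb, Rgs9 and Gnal first by rank. Prkcb encodes a protein kinase C and Rgs9 and Gnal regulate or form striatal G proteins. Chromatin and transcription regulators had 3 gained and 15 lost (2.07%) of 726, with lost regions in Ezh1, Arid1b and Kdm6b and all 3 gained regions in Hdac9. Calcium and sodium channels had 12 gained (0.558%) and 25 lost (1.16%) of 2152, both below the shares of all merged regions, with lost regions in the subunit genes Cacna2d2, Cacna2d3 and Cacna1h. Glutamate receptors (25 gained and 21 lost of 2094), synaptic adhesion and scaffold genes (39 and 30 of 3815) and vesicle release genes (24 and 25 of 1602) had regions of both kinds. Transcription factors of medium spiny neurons had 10 gained (0.872%) and 17 lost (1.48%) of 1147. In the list of estrogen, progesterone and steroid receptors and their cofactors, 10 regions were gained and 3 lost of 437. The gained regions included 1 in an intron of Esr1, the estrogen receptor alpha gene, with an AP-1 motif, at chr10:4785681-4786020, and 1 at a promoter of Esrrg. Of the lost ones, 1 lay in Ncoa2, which also held 3 of the gained regions. Median GC content of the regions was 40.3% in the axon guidance list, 38.7% in the GABA list, 45.3% in the dopamine list and 44.4% in the chromatin list. GC content and gene length moved with these counts, and their part in them was not tested.

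Immediate early genes, the first genes to respond to neuronal activity, had open promoters in both groups. Of 28 promoters 24 were called in all 6 libraries and 4 in none. Among the other function lists, the promoters called in all 6 ran from 13 of 22 (opioid and neuropeptide genes) to 34 of 37 (chromatin and transcription regulators). Open promoters were thus not particular to immediate early genes. No region of the immediate early gene list was gained, and 1 of 121, in an intron of Klf4, was lost.

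Regions called in all 6 libraries were not chosen for a difference, so these 49242 regions were tested. Fold enrichment was quantile normalised, which keeps only ranks within a library, and compared on the log2 scale with limma and Benjamini-Hochberg adjustment. Fold enrichment was higher after cocaine in 1240 regions (2.52%) and lower in 1155 (2.35%) at an adjusted p of 0.05. Without normalisation the split was 1926 higher and 485 lower. The median difference of the higher regions was 0.63 and that of the lower regions -0.63. The counts depended on single libraries, with 4888 higher and 4567 lower without cocaine library 2, and 74 higher and 93 lower without control library 2. Without cocaine libraries 1 and 4 the counts were 235 and 380, and 325 and 473, and without control libraries 1 and 3 they were 144 and 128, and 179 and 178.

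The higher regions carried the AP-1 motif in 30.6% of cases, the lower regions in 4.07% and all tested regions in 11.6%. This excess depended on GC content. In the highest of the 5 bins of GC content, the share was 6.79% of 221 higher and 5.89% of 18325 tested regions. In the other bins it ran from 29.6% to 42.1% of higher and from 13.6% to 16.4% of tested regions. The cAMP response element was found in 2.02% of higher, 0.346% of lower and 1.08% of tested regions. Intergenic regions made up 43.7% of higher and 32.3% of lower regions, and promoters 17.1% and 18.8%, against 30.1% and 21.3% of tested regions. Median GC content was 41.3% in higher and 53.1% in lower regions. When fold enrichment was normalised separately within 20 bins of GC content, a setting chosen after the data were seen, 1222 regions were higher and 1250 lower, of which 794 and 792 were also called by the test above. In that fit the median GC contents were 49.3% and 48.6%, the AP-1 shares 25.1% and 3.04%, and the promoter shares 35.7% and 21.4%.

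The 6 regions of largest increase were picked by the difference itself, so their separation is a description and not a test. In these 6 regions every cocaine library lay above every control library. They lay nearest Pcdh20, Tcf4, Lrrc4c, Adamts6, Perp and Arhgap18, and 4 of them were intergenic. At Perp, 16637 bp from the start of this adhesion gene at chr10:18860746-18862035, fold enrichment was 3.70, 4.18 and 4.27 in the controls and 8.91, 9.09 and 9.63 in the cocaine libraries. The difference was 1.12 ± 0.16 (SE, adjusted p = 0.000916 by limma), and the region held an AP-1 motif. In an intron of the protease gene Adamts6, also with an AP-1 motif, the controls had 2.43, 3.13 and 2.75 and the cocaine libraries 6.51, 5.35 and 6.91. The Lrrc4c region, 742097 bp from the start of this synaptic adhesion gene, had 2.43, 2.67 and 2.46 against 5.21, 6.10 and 6.49. In the diestrus libraries, which were not used to find them, cocaine ranked above control without overlap at Tcf4, Adamts6 and Perp, and the groups overlapped at Pcdh20, Lrrc4c and Arhgap18.

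**Figure D3:**
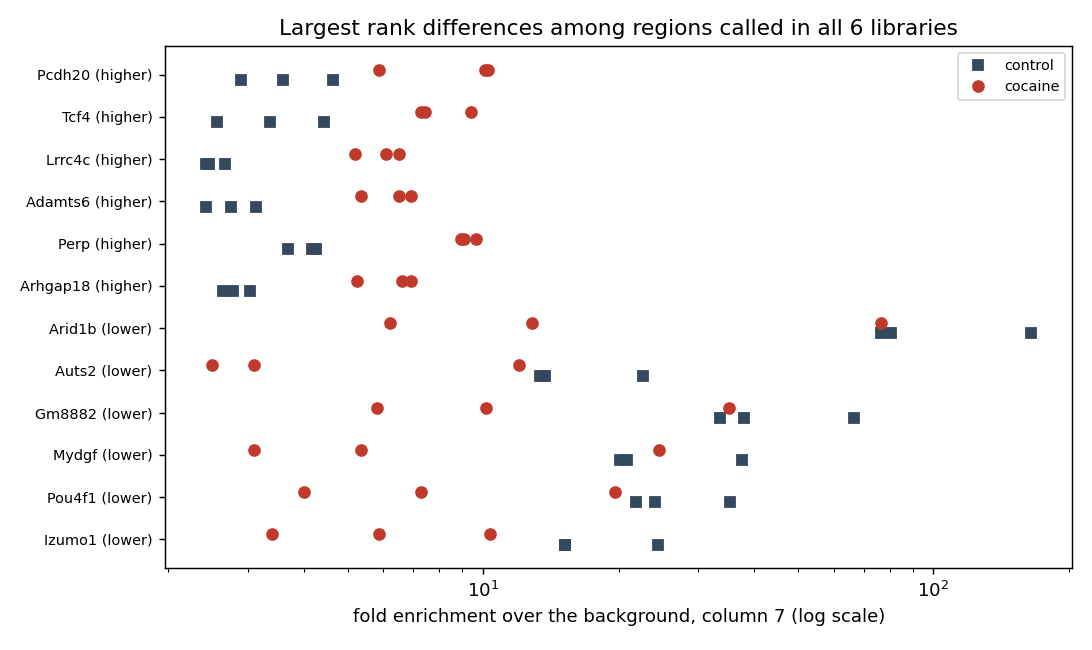
Fold enrichment of the summit over the background (horizontal axis, log scale) in the 3 control (squares) and 3 cocaine (circles) libraries of proestrus for the 6 largest increases and 6 largest decreases, named by the nearest gene. The groups are separate in the first 6 regions, and a cocaine library lies among the controls at Arid1b, Gm8882 and Mydgf.

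The 6 largest decreases were repeat-rich regions of at most 755 bp, against a median of 1231 bp over the tested regions, and from 49.8% to 92.0% masked as repeat around the summit, against a mean of 10.3% there. The largest was intergenic, 368576 bp from the start of the chromatin remodelling gene Arid1b. There the controls had 164.9, 80.6 and 76.4 and the cocaine libraries 6.21, 12.8 and 76.4, so that cocaine library 4 stood at the level of the controls. The difference was -2.40 ± 0.50 (SE, adjusted p = 0.0109 by limma). An intron of Auts2 had 22.7, 13.7 and 13.4 against 2.50, 3.10 and 12. The others lay nearest Gm8882, Mydgf, Pou4f1 and Izumo1. In diestrus, every cocaine library ranked below every control library at all 6 regions, with uncalled libraries counted as lowest. Of 15 settings tried, the call near Mydgf held in 10 and that near Arid1b in 12.

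The same comparison of ranks in diestrus could be made for all called regions. Of the 1240 regions higher in proestrus, 661 (53.3%) had all 3 diestrus cocaine libraries above all 3 diestrus controls, beside 12% of the 49242 tested regions, and 6 had the reverse. Of the 1155 lower regions, 232 (20.1%) had all diestrus cocaine libraries below all controls, beside 7.44% of tested regions, and 1 had the reverse. The median rank of higher minus lower regions was 17.9 points greater with cocaine than in controls in diestrus (exact permutation p = 0.1, the smallest the design allows) and -3.10 points in males (exact permutation p = 0.7), with an exact p of 0.19 over both.

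Among the function lists, regions of the immediate early gene list passed the test at 2 promoters upward (4.08%) and at 1 gene downward (2.04%), of 49 tested. Of all tested regions 2.52% were higher and 2.35% lower. At the Jun promoter, chr4:95048487-95054649, fold enrichment was 46.1, 56.2 and 60.6 in the controls and 63.2, 71.5 and 59.3 in the cocaine libraries. In fold enrichment, cocaine library 4 thus lay within the controls. The percentile ranks were separate, at 99.938 to 99.963 in the controls and 99.971 to 99.977 in the cocaine libraries. The normalised difference was 0.27 ± 0.06 (SE, adjusted p = 0.0184 by limma). At the Dusp6 promoter, a MAP kinase phosphatase, the controls had 15.2, 19.3 and 19.4 and the cocaine libraries 26.1, 25.6 and 24. At Vgf, a neuropeptide precursor gene, the controls had 25.6, 28.7 and 29.95 and the cocaine libraries 21.1, 22.8 and 21.3.

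Receptor and signalling genes had regions past the test in both directions, which are to be read beside 2.52% higher and 2.35% lower of all tested regions. In an intron of Oprm1, with an AP-1 motif, fold enrichment was 5.6, 5.80 and 5.50 in the controls and 9.91, 10.3 and 9.11 in the cocaine libraries, a difference of 0.71 ± 0.15 (SE, adjusted p = 0.00943 by limma). An intron of Grin2b, an NMDA receptor subunit, had 2.75, 2.90 and 2.56 against 5.91, 4.38 and 5.45. In all, 3 regions of glutamate receptor genes were higher (0.862%) and 8 lower (2.30%) of 348 tested, neither above those shares, with 3 of the lower in the kainate receptor gene Grik5. GABA signalling genes had 4 higher regions, among them 1 in Gabrb1 and 1 in Gad2, and 3 lower, in Gphn, Gabbr1 and Gabrd, of 125. Dopamine and medium spiny neuron signalling had 2 higher, in Ppp3ca and Prkca, and 7 lower of 180 (3.89%), with 3 each in Prkcb and in Pde10a, a striatal phosphodiesterase, and 1 in Rgs9. Axon guidance genes had 8 higher (2.85%) and 3 lower of 281, and the 2 largest increases lay in Sema3c. There, at chr5:17673498-17674339, the controls had 5.49, 4.06 and 3.98 and the cocaine libraries 10.2, 8.23 and 9.95. Potassium channel genes had 8 higher and 1 lower of 306, with 3 each of the higher in Kcnq5 and Kcnip4, and synaptic adhesion and scaffold genes had 11 higher (1.80%) and 9 lower (1.47%) of 612.

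The list of steroid receptors and cofactors had 1 region past the test of 77, a lower one (1.30%, beside 2.35% of all tested regions). It lay in an intron of Ncoa1, a coactivator of nuclear receptors, at chr12:4417254-4418341. Fold enrichment there was 19.3, 12.8 and 9.86 in the controls and 3.40, 4.06 and 6.81 in the cocaine libraries. The groups did not overlap, and the difference was -1.64 ± 0.24 (SE, adjusted p = 0.00119 by limma). Control library 1 was the highest control and cocaine library 4 the highest cocaine library, as at each of the largest decreases named above. Those were repeat-rich, and whether the Ncoa1 region is of that kind was not tested. In diestrus, every cocaine library also ranked below every control library there, so the fall was not particular to proestrus. The region was picked out after its value was seen, as the only member past the test.

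The promoters of 24 genes that the study discussed from its ATAC-seq libraries were read as well. The study named Ncoa1, Cacng2, Npy2r, Cadps, Proca1 and Sgo1 for lower accessibility after cocaine in proestrus. It named most of the others from diestrus or male libraries, and some of their regions lay upstream or in an intron. The study tested read counts and not calls. This list was chosen by the study, in part on these samples, and is not independent evidence. Promoters of 19 genes were called in all 6 libraries, namely Ncoa1, Cacng2, Npy2r, Cadps, Sgo1, Gabrg1, Homer1, Drd1, Drd2, Gabra5, Ezh2, Egr2, Sp9, Fgfr1, Gad2, Ythdc1, Lrif1, Smchd1 and Pdpk1. The promoters of Crhbp and Nmur2 were called in none, that of Proca1 in 3 control and 1 cocaine library, that of Drd3 in 1 cocaine library and that of Esr2 in 2 cocaine libraries. None was gained or lost. Among the 19, only Pdpk1, a kinase that activates Akt, passed the test, with a difference of -0.38 ± 0.10 (SE, adjusted p = 0.0317 by limma). Its fold enrichment was 26.4, 28 and 28.6 in the controls and 21.4, 28.1 and 17.8 in the cocaine libraries. In fold enrichment, cocaine library 2 thus lay within the controls. Its percentile ranks were separate, at 98.8 to 99.1 in the controls and 97.4 to 98.2 in the cocaine libraries. The dopamine receptor promoters of Drd1 and Drd2 differed by -0.24 ± 0.15 and -0.32 ± 0.18 (SE) without passing the test. Of the promoters named for lower accessibility in proestrus, that of Cacng2 was lower, by -0.26 ± 0.18 (SE). Those of Ncoa1 (0.12 ± 0.15), Npy2r (0.28 ± 0.17), Cadps (0.16 ± 0.16) and Sgo1 (0.13 ± 0.10, SE) were higher. None of these passed the test, and the regions read here need not be those of the study.

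Over whole libraries, the groups overlapped in the number of peaks and were separate in several features of the peaks. The 18 measures were compared with exact two-sided permutation tests, whose smallest possible p for 3 against 3 is 0.1 and whose adjusted p was then 0.2, so that none could pass 0.05. The number of peaks was 123887 ± 5340 after cocaine and 125205 ± 5683 in controls (SD, n = 3 each, exact permutation p = 0.9). Peaks with an AP-1 motif made up 10.3%, 8.69% and 9.62% of the cocaine libraries and 7.71%, 7.56% and 7.48% of the control libraries, without overlap. The mean share was 9.53% ± 0.80 against 7.58% ± 0.11 (SD, n = 3 each, exact permutation p = 0.1). Median GC content of peaks was 44.4% ± 0.94 against 46.2% ± 0.30, the exon share 4.45% ± 0.46 against 5.58% ± 0.07 and the intergenic share 28% ± 0.64 against 26.2% ± 0.19 (SD), each without overlap. Nor did the groups overlap in median peak width or in the shares with the MEF2 site, the octamer, the cAMP response element and the proneural E-box. The promoter share was 11.1% ± 0.69 against 11.2% ± 0.52 (SD, n = 3 each, exact permutation p = 1), and the estrogen response element lay in 0.0124% and 0.0122% of peaks.

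**Figure D4:**
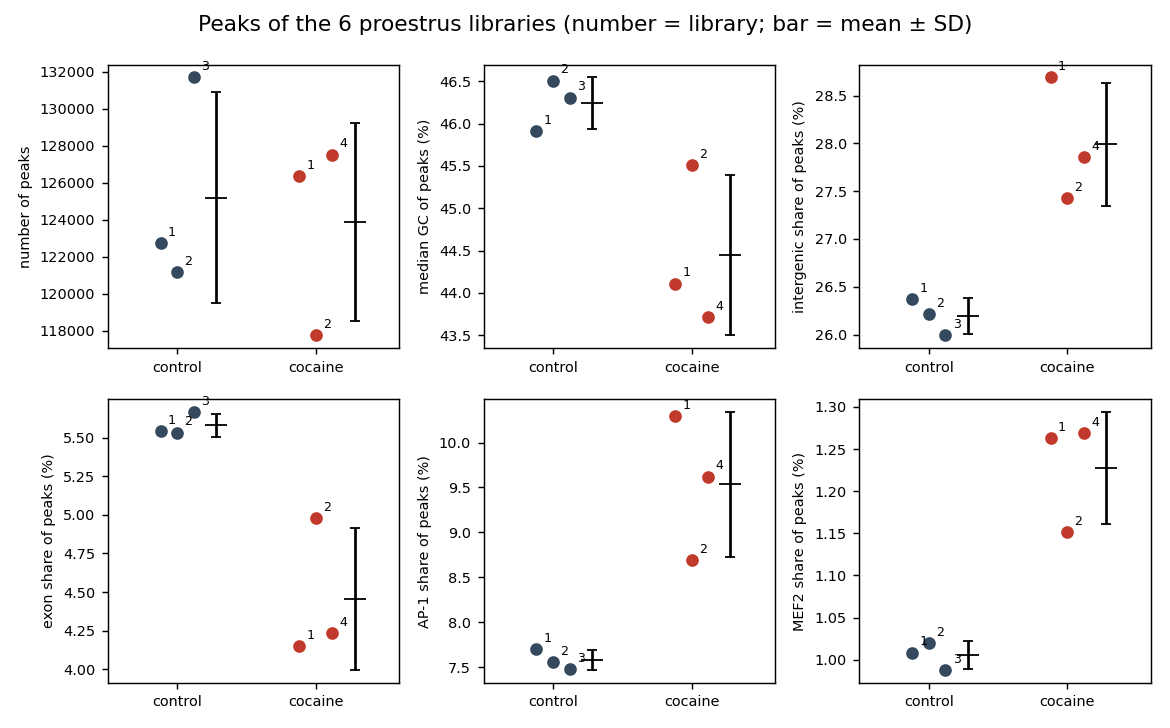
Number of peaks, median GC content, intergenic and exon shares and shares of peaks with AP-1 and MEF2 motifs (vertical axes, which do not start at 0) in the 3 control and 3 cocaine libraries of proestrus. Points are libraries with their numbers and bars are mean ± SD. The groups overlap in the number of peaks and in none of the other 5 measures, and cocaine library 2 is the cocaine library nearest to the controls in each of these 5.

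Markers and depth describe how far the libraries were alike. All 14 medium spiny neuron marker promoters were called in every library, and 7 or 8 of the 8 pan-neuronal ones. Cortical excitatory markers were called for 2 to 5 of 8 genes and striatal interneuron markers for 1 to 3 of 10. Microglia promoters were called for 0 or 1 of 8 genes and endothelial ones for 0 or 1 of 6. Cocaine library 2 stood apart in glial markers, with 8 of 10 promoters of the oligodendrocyte lineage called against 3 in each of the other 5 libraries and 5 of 8 astrocyte promoters against 2 or 3. The summed fold enrichment over the called oligodendrocyte promoters was 46.2 in that library and 15.9 to 17.1 in the others. Without that library 9776 regions were gained and 4743 lost, and the AP-1 share of gained regions exceeded that of lost regions by 10.4 percentage points. The part of these markers in the comparison was not tested. In bulk nuclei, fewer cells of a type and less accessibility per cell cannot be told apart. The background pileup, a measure of depth, lay between 7.62 and 9.55 reads in the 6 libraries.

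Libraries of the other groups, which had no part in choosing the gained and lost regions, were read for the same regions. In the diestrus controls, 37.2%, 37.1% and 47.9% of the gained regions were called, against 35.2%, 63.1% and 56.0% of the lost regions. In the diestrus cocaine libraries, 64.1%, 69.1% and 58.3% of the gained regions were called, against 63.3%, 14% and 7.30% of the lost regions. Gained regions were thus called more often in every diestrus cocaine library than in any diestrus control. Lost regions were called less often than in any control in diestrus cocaine libraries 2 and 3, and more often in library 1. All merged regions were called in 54.0%, 40.8% and 35.5% of cases in diestrus cocaine libraries 1, 2 and 3 and in 42.1% to 49.7% in the diestrus controls, so that the lost regions followed the overall number of calls in direction, and the part of that number in their shares was not tested. The difference between the shares of gained and lost regions was 35.6 ± 30.3 points with cocaine and -10.7 ± 14.2 points in controls (SD, n = 3 each, exact permutation p = 0.2). Within the same 5 bins of GC content it was 37.2 ± 25.4 against -2.25 ± 7.76 points (SD, exact permutation p = 0.1, the smallest the design allows).

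In males the 2 groups overlapped. The share of gained minus the share of lost regions was 21.5 ± 5.6 points in 2 cocaine libraries and 19.9 ± 19.6 points in 3 control libraries (SD, exact permutation p = 0.9, where 2 against 3 cannot go below 0.1). With labels permuted within diestrus and within males, the exact p over both was 0.13. Within the 5 bins of GC content the male values were 19.3 ± 6.34 with cocaine and 36.5 ± 14 points in controls (SD, exact permutation p = 0.2), the opposite direction to diestrus, and the exact p over both was 0.38. The male cocaine libraries had the fewest calls of all, 30.8% and 26.5% of the merged regions against 44.2% to 48.6% in male controls.

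**Figure D5:**
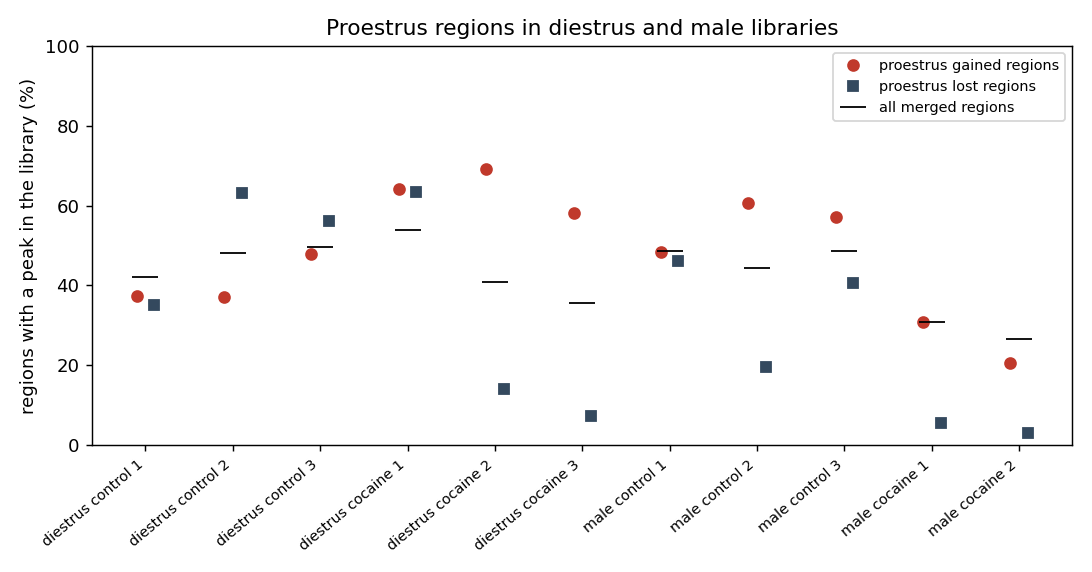
Share of proestrus gained (circles), lost (squares) and all merged regions (dashes) with a peak (vertical axis, percent) in each diestrus and male library (horizontal axis). Gained regions lie between 58.3% and 69.1% in the diestrus cocaine libraries and between 37.1% and 47.9% in the diestrus controls.

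The cocaine effect itself was compared between proestrus and diestrus by exact permutation of the stage labels within each treatment, in 400 assignments. The effect on the AP-1 share was 1.95 points in proestrus and 2.06 in diestrus, a difference of -0.11 points (exact permutation p = 0.885, adjusted p = 0.97 over 18 measures). The effect on median GC content was -1.80 points in proestrus and -0.33 in diestrus (exact permutation p = 0.07, adjusted p = 0.5625). No measure passed the adjustment.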

How the data were processed

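ATAC-seq peaks of 6 proestrus libraries were compared, with the 11 other libraries of the study as libraries that took no part in choosing regions. The authors trimmed adapters, aligned them by BWA-MEM to mm10, and ran MACS2 on every library alone. The version and options of the caller are not given in the sources used here. Of the deposited columns, 1 is a score, 1 the fold enrichment at the summit (a ratio to background), 1 the −log10 p-value and 1 the −log10 q-value. The authors made all of them within a library, without normalization between libraries. The authors tested read counts with DESeq2, and no counts were used here. All fold enrichments were whole multiples of 1 step per library, within 0.02 of a step plus 2e-05 of the multiple, which gave the background pileup.

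Groups came from the labels. Peaks on 19 autosomes that overlapped by 1 bp were merged over the 6 libraries. The value of a region in a library was its highest fold enrichment there. Regions in all 6 libraries were tested with limma 3.58.1 (R 4.3.3, trended variance) after quantile normalization of log2 fold enrichment, with Benjamini-Hochberg adjustment. Single values per library were compared with exact permutation tests. Regions were annotated with GENCODE vM21 and GRCm38, and genes named are the nearest start site or, in lists, the gene that holds the region. Blacklisted regions, which the authors removed later, were kept. Motifs were sought within 100 bp of the summit and GC content within 250 bp of it. The limma test and the merging and calling of regions were tried on simulated data.

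The members and lists were chosen with earlier results of these data known. Regions named are the first by the lowest of their 3 ranks (8 promoters and 6 others in each direction), the 5 genes with the most gained and the most lost regions, up to 4 members per list, the genes the study discussed, and the 6 largest differences in each direction past the test. List members past the test were named beyond this rule, after their values were seen. Separation by GC content was added after the data were seen. Alternatives were another merge, stricter peaks, equal peak numbers, wider overlap, other separations, scales, windows, a replicate block and leaving out each library. Some genes and sequences that the rule selects are not reported here.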

Additional observations from a re-analysis of the deposited data

Results flagged for a closer look

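The effect of cocaine on the share of peaks with a MEF2 site differed between stages, by the exact permutation of stage labels. The share was 1.23% ± 0.07 after cocaine and 1.01% ± 0.02 in controls in proestrus, and 1.16% ± 0.06 and 1.21% ± 0.09 in diestrus (SD, n = 3 each). The difference between the effects was 0.27 percentage points (exact permutation p = 0.01), with an adjusted p of 0.18 over the 18 measures compared, so it did not pass the correction. In proestrus all 3 cocaine libraries lay above all 3 controls.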

How the results depend on the processing

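The direction of the AP-1, GC and promoter differences between gained and lost regions was the same under every alternative run, while counts of regions were not stable. With peaks at −log10 q of at least 5, 2274 regions were gained and 1209 lost, of which 659 and 383 were gained and lost before, the AP-1 share differed by 15.9 points and the promoter share by -1.89 points, and the difference in the number of peaks turned to 2661. With at least 2 more calls in 1 group, 17684 were gained and 15800 lost, the AP-1 difference was 9.01 points and the GC difference -7.98 points. A promoter of 3 kb gave -12.5 points, a motif window of 250 bp 15.5 points, and 5 bins of GC content, added after seeing the data, 13 points. Leaving out each library gave 4737 to 9776 gained and 4207 to 7590 lost regions, AP-1 differences of 8.61 to 11.3 points, GC differences of -10.2 to -7.39 points, and promoter differences of -3.26 to -0.38 points. Complete separation asks less of 5 libraries than of 6. Leaving out each library also gave 74 to 4888 higher and 93 to 4567 lower regions, and the cause was not tested. Normal scores gave 796 higher and 744 lower regions and log2 values without normalization 1926 and 485. The number of peaks differed by -1318, and leaving out each library gave -3342 to 1931, with a change of direction without control library 3 (1931) and cocaine library 2 (1748). The promoter share of peaks differed by -0.13 points, and leaving out each library gave -0.53 to 0.086, above 0 without controls 1 (0.021) and 2 (0.013) and cocaine libraries 1 (0.086) and 4 (0.048). With the replicate number as a block, 481 regions were higher and 602 lower, and the number of peaks differed by 112.5 within pairs. Deviations of same-numbered libraries correlated at 0.13 for number 1 and 0.091 for number 2. Those of differently numbered libraries ran from -0.19 (cocaine 2 with control 1) to 0.13 (cocaine 4 with control 1). Only 2 numbers are shared, and whether libraries of the same number were processed together was not tested. Cocaine minus control in the AP-1 share and GC content of peaks, and the diestrus comparison, kept their direction in all alternatives run. No exact permutation test of 3 against 3 can fall under 0.1. Among single gained and lost regions 5 values moved and 275 did not, and among single tested regions 17 lost their call and 156 kept it. Depth limits the missing calls: the weakest called summit held 17 to 20 reads.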
